A study of Mus musculus with 8 samples.

Results

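The 10 genes of the BMP9-ALK1 type of signalling were described in flushed aortic endothelial RNA of mice with and without induced endothelial deletion of Mef2c. They were chosen by name: the receptors Acvrl1, Eng and Bmpr2, the inhibitory SMADs Smad6 and Smad7, the inhibitors of DNA binding Id1, Id2 and Id3, and the ligands Bmp4 and Bmp6. Each of these 10 genes, of 30063 with a probe set that names a single gene, had 1 probe set on the array. RNA came from 8 female mice, each carrying floxed alleles of Mef2c, the gene of a MADS-box transcription factor, and the recombinase transgene Cdh5-CreERT2, which the VE-cadherin promoter drives in endothelium. At 10 weeks of age, 4 mice (EKO) received tamoxifen on 5 days and 4 littermates (control) received the vehicle, sunflower seed oil with 10% ethanol. On day 14 from the start of injections the thoracic aorta was removed, TRIzol was flushed through the lumen, and the RNA of 1 aorta was measured on 1 Affymetrix Mouse Transcriptome Array 1.0. Control mice had no tamoxifen, so drug and deletion cannot be told apart.

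In endothelium, BMP9 and BMP10 reach the vessel wall from the blood and bind a complex of the type I receptor ALK1, encoded by Acvrl1, the type II receptor BMPR2 and the co-receptor endoglin, encoded by Eng. The receptors phosphorylate SMAD1, SMAD5 and SMAD9, which enter the nucleus with SMAD4 and switch on the Id genes and the feedback inhibitors Smad6 and Smad7. Inherited loss of ALK1 or endoglin causes hereditary haemorrhagic telangiectasia, and loss of BMPR2 causes pulmonary arterial hypertension.

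Levels are log2 expression values, so a difference of 1 is a 2-fold change, and they are not compared between genes because each probe set has its own response. Array medians over the 16232 genes tested lay between 8.43 and 8.53, and arrays correlated pairwise with r of 0.981 to 0.993 across these genes, which are not independent replicates. Mef2c averaged 9.77 ± 0.11 in control and 9.75 ± 0.20 in EKO arrays (SD, n = 4 each), a difference of -0.03. That difference was 0.016 under quantile normalization, and the single probe set summarises the whole transcript cluster, so it does not check the deletion. All 10 endothelial markers were tested, and their mean per array was 12.15 to 12.41 in control and 12.13 to 12.33 in EKO aortas. Marker means of other cells varied between arrays. The mean of 8 adipocyte markers was 8.48 to 10.93 in control and 7.95 to 10.30 in EKO aortas. For 5 neutrophil markers it was 6.07 to 7.94 and 6.67 to 9.32, and for 8 fibroblast markers 8.04 to 8.78 and 7.80 to 8.36. For 7 smooth muscle markers it was 7.58 to 7.95 and 7.74 to 8.41. The mean of 5 macrophage markers was 6.99 to 8.02 in control and 7.26 to 8.06 in EKO aortas, and that of 3 lymphatic endothelial markers 7.03 to 7.53 and 6.75 to 7.47. Of 3 erythroid markers 1 had a probe set, Alas2, which encodes the erythroid enzyme that starts haem synthesis. It read 13.34 to 15.15 in control and 12.94 to 13.58 in EKO aortas, a difference of -1.02 (limma unadjusted p = 0.0195, adjusted p = 0.528), and its part in the values of the 10 genes was not tested. In such bulk samples, fewer cells of a type and less RNA per cell cannot be told apart. Some tested markers also read below the medians of the array's negative controls, 7.34 to 7.45. Both group means lay there for Kdr and Robo4 (endothelial), Ngp and Ltf (neutrophil), and Myh11, Cnn1, Des and Lmod1 (smooth muscle). The same held for Col1a1, Col1a2, Col3a1 and Fbln1 (fibroblast), Adgre1 and Mrc1 (macrophage), and Lyve1 and Pdpn (lymphatic endothelial).

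None of the 10 genes differed between EKO and control aortas beyond the spread between arrays. In limma, 0 of the 10 had a Benjamini-Hochberg adjusted p under 0.05, as had 0 of all 16232 genes tested (0%). At an unadjusted p under 0.05 there were again 0 of the 10, beside 1449 of all genes (8.93%). In none of the 10 were the groups apart, against 987 of all genes (6.08%). Among the 11217 protein-coding genes of this limma fit, 657 had an unadjusted p under 0.05 and 503 had groups apart. Of the differences, EKO minus control on the log2 scale, 5 were above 0 and 5 below, from -0.16 to 0.15, with a median of 0.0016 against -0.02 over all genes tested. The median size was 0.06, against 0.10 over all genes and 0.09 over the protein-coding ones. The precision differed between the genes, and a p above the threshold does not show equal levels: the 95% confidence interval of the difference allowed 0.91- to 1.20-fold for Acvrl1 but 0.41- to 1.94-fold for Bmp4.

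**Figure D1:**
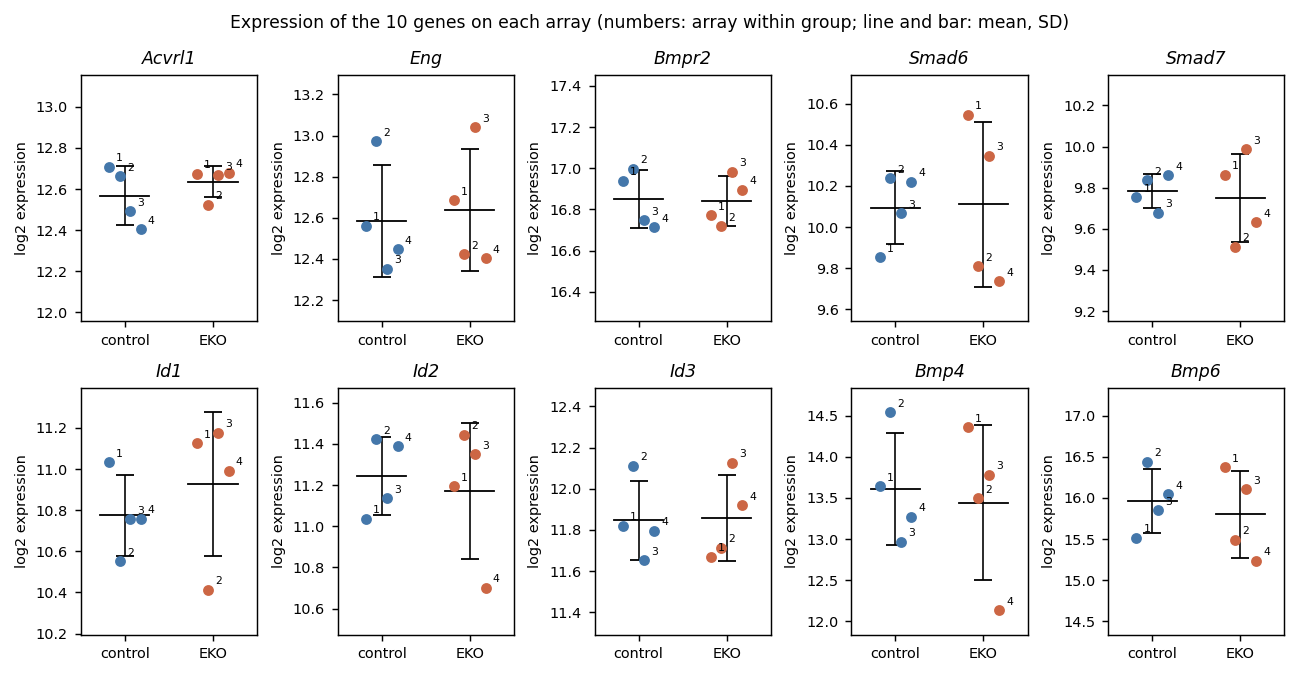
Log2 expression (vertical axes) of each of the 10 genes on the 4 control and 4 EKO arrays; numbers beside the points give the array within its group, and lines and bars give mean and SD. All vertical axes span the same distance except those of Bmp4 and Bmp6, which span more. In every panel the points of both groups overlap, and Bmp4 on EKO array 4 (12.13) lies below all its other values.

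Among the receptors, Acvrl1 varied little. Its values were 12.71, 12.66, 12.49 and 12.40 in control aortas 1 to 4, against 12.67, 12.52, 12.67 and 12.68 in EKO aortas 1 to 4. EKO arrays 1, 3 and 4 lay close together, EKO array 2 stood below them, and every EKO value fell inside the range of the controls. The means were 12.57 ± 0.14 and 12.64 ± 0.08 (SD, n = 4), a difference of 0.07 (SE 0.09, limma adjusted p = 0.804).

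Eng read 12.56, 12.97, 12.35 and 12.45 on control arrays 1 to 4 and 12.69, 12.42, 13.04 and 12.40 on EKO arrays 1 to 4. Control array 2 and EKO array 3 were the highest of their groups, and the others overlapped. The difference was 0.06 (SE 0.18, 95% interval -0.35 to 0.46; adjusted p = 0.930 in limma), with -0.079 when EKO array 3 was left out and 0.18 when control array 2 was.

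Bmpr2 had the narrowest range of the 10 over the 8 arrays, 0.28. It read 16.94, 17.00, 16.75 and 16.71 in control and 16.77, 16.72, 16.98 and 16.90 in EKO arrays 1 to 4, so that each group held a higher and a lower pair. The difference was -0.01 (SE 0.09, 95% interval -0.22 to 0.21; adjusted p = 0.980 in limma). The within-group SD of Acvrl1 exceeded that of 30.2% of the genes tested and the SD of Bmpr2 that of 39.1%, whereas the SD of Eng exceeded that of 83.2%.

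The signs of such small differences depended on the scaling. Each array was centred on its median over all probe sets other than array controls, not over the genes tested alone. Acvrl1 then stood at -0.0057, Eng at -0.020, Smad6 at -0.060 and Id3 at -0.064. Under quantile normalization Smad7 stood at 0.0081. No direction is therefore given for these genes.

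The feedback inhibitors Smad6 and Smad7, whose proteins block receptor-activated SMADs, were more scattered among EKO than among control arrays, which was not tested. Smad6 read 9.85, 10.24, 10.07 and 10.22 in control and 10.55, 9.81, 10.35 and 9.74 in EKO arrays 1 to 4. EKO arrays 1 and 3 lay above all controls, and EKO arrays 2 and 4 below all controls. The means were 10.09 ± 0.18 and 10.11 ± 0.40 (SD, n = 4), a difference of 0.02 (SE 0.19, limma adjusted p = 0.981), which became -0.13 when EKO array 1 was left out and 0.14 when EKO array 4 was.

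Smad7 had the same layout. It read 9.75, 9.84, 9.68 and 9.86 in control and 9.86, 9.51, 9.99 and 9.63 in EKO arrays 1 to 4, with 2 EKO arrays above the control range, array 1 by a narrow margin, and 2 below it. The means were 9.78 ± 0.08 and 9.75 ± 0.21, and the difference was -0.03 (SE 0.11, limma adjusted p = 0.930).

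The Id proteins lack a DNA-binding region and hold basic helix-loop-helix partners away from DNA, and Id1 is the member most used as a readout of ALK1 activity in endothelium. Id1 read 11.03, 10.55, 10.75 and 10.76 in control and 11.13, 10.41, 11.18 and 10.99 in EKO arrays 1 to 4. EKO arrays 1 and 3 lay above all controls and EKO array 2 below them. The means were 10.77 ± 0.20 and 10.93 ± 0.35 (SD, n = 4), so that EKO exceeded control by 0.15 (SE 0.18, 95% interval -0.25 to 0.56; adjusted p = 0.791 in limma).

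Id1 was the single member of the 10 whose sign held under each of 20 alternative settings. Those of filter, gene class, variance model, replicate block, probe set choice and the exact test cannot change a difference, and left that of Id1 at 0.15. The values over all 20 ran from 0.07 to 0.32. The highest came without EKO array 2 (0.32, limma unadjusted p = 0.0280, adjusted p = 0.661), and the lowest without EKO array 3. EKO array 2 was also the array with the highest neutrophil marker mean, 9.32, with S100a8 at 11.32, and the lowest adipocyte marker mean, 7.95. With the adipocyte mean as a covariate the difference of Id1 was 0.23 (limma unadjusted p = 0.229, adjusted p = 0.722). Over the 8 arrays, Id1 and the adipocyte mean had r = 0.34 (exact permutation p = 0.400, adjusted 0.730; rho = 0.24, exact permutation p = 0.582, adjusted 0.856), and 0.16 without the 2 arrays farthest from the median of that mean. Id1 and the neutrophil mean had r = -0.48 (exact permutation p = 0.234, adjusted 0.718; rho = -0.33, exact permutation p = 0.428, adjusted 0.792), with 0.16 within control and -0.98 within EKO arrays, and -0.63 without the 2 farthest arrays. Adjustment was over 50 relations of the 10 genes with 5 marker means. No fit had the neutrophil mean as a covariate.

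Id2 read 11.04, 11.42, 11.14 and 11.39 in control and 11.19, 11.44, 11.35 and 10.70 in EKO arrays 1 to 4. Its difference of -0.07 (SE 0.17, limma adjusted p = 0.897) was 0.083 without EKO array 4, the lowest. Id3 read 11.82, 12.11, 11.65 and 11.80 in control and 11.67, 11.71, 12.13 and 11.92 in EKO arrays 1 to 4, and differed by 0.01 (SE 0.13, limma adjusted p = 0.980). The 3 Id genes did not share one order of arrays. EKO array 4 was lowest for Id2 but second highest of its group for Id3, and EKO array 2 was lowest for Id1 but highest for Id2.

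The windows before the start of Id2 and Id3 are shown with that of Bmpr2, the receptor whose values lay closest to those of Id3 across arrays, so that the SMAD motifs of the pathway can be read in them. They are the 250 bases upstream of the RefSeq start on GRCm38.p6, written 5′ to 3′ on the strand of the gene; capitals mark GGCGCC, a GC-rich element bound by SMAD1 and SMAD5, and GTCTG or its complement CAGAC, the SMAD box.
Id2 (chr12:25096093-25096342, minus strand): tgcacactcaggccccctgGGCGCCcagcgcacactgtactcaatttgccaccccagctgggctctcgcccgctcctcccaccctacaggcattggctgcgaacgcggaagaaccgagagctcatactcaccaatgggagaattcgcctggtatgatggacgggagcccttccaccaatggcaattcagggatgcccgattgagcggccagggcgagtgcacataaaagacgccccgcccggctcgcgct
Id3 (chr4:136143572-136143821, plus strand): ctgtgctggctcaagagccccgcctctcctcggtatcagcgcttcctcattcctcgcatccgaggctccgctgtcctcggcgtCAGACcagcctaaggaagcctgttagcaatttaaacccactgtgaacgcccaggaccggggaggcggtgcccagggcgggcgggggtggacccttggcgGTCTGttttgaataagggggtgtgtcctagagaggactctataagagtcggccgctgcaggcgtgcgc
Bmpr2 (chr1:59764029-59764278, plus strand): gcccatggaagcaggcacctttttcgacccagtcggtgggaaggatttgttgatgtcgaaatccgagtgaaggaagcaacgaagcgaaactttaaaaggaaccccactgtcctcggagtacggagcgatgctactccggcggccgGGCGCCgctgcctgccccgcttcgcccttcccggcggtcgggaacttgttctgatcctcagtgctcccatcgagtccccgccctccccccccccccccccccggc
Id2 and Bmpr2 each held 1 GGCGCC, which begins 231 and 105 bases before the start and which 9.54% of 27018 promoters of this length held on either strand. Id3 held 2 SMAD boxes, 167 and 68 bases before the start, and no GGCGCC; 42.1% of the promoters held at least 1 SMAD box. Acvrl1, Smad7 and Id1 had no entry among the RefSeq windows used, so no motif was read for them. Of the 7 members with a RefSeq window, Eng (2) and Bmp6 (1) also held SMAD boxes. None of the 7 held the palindrome GTCTAGAC (0.174% of promoters), and Smad6 and Bmp4 held none of the 3 motifs. The E-box CANNTG, the site of the basic helix-loop-helix partners of Id proteins, was found once in Eng and Id2, 3 times in Bmp4 and 2 times in Bmp6, against 66.1% of promoters with at least 1. A match of letters is a description and shows no binding.

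The ligands were the most variable members. Bmp4 read 13.64, 14.54, 12.97 and 13.27 in control and 14.36, 13.50, 13.78 and 12.13 in EKO arrays 1 to 4. It spanned 2.40 over the 8 arrays, with control array 2 highest and EKO array 4 lowest. The means were 13.60 ± 0.68 and 13.44 ± 0.94 (SD, n = 4), so that EKO minus control was -0.16 (SE 0.49, 95% interval -1.28 to 0.95; adjusted p = 0.925 in limma). The within-group SD exceeded that of 98.9% of the genes tested, and the difference was 0.27 without EKO array 4, 0.15 without control array 2 and -0.47 without EKO array 1.

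Bmp6, which is made by endothelium and regulates hepcidin in the liver, read 15.51, 16.44, 15.85 and 16.05 in control and 16.37, 15.49, 16.11 and 15.24 in EKO arrays 1 to 4. Control array 2 was again highest and EKO array 4 lowest. The difference was -0.16 (SE 0.28, 95% interval -0.80 to 0.48; adjusted p = 0.861 in limma), and its SD exceeded that of 94.1% of the genes tested. Leaving out EKO array 4 gave 0.028, and leaving out EKO array 1 gave -0.35. With the smooth muscle marker mean as a covariate it was -0.46 (limma unadjusted p = 0.0399, adjusted p = 0.452). EKO array 1 had the highest smooth muscle mean, 8.41, with Acta2 (12.39), Tagln (11.03) and Smtn (9.53) highest there. The other tested markers of this list, Myh11 (6.93), Cnn1 (6.29), Des (6.71) and Lmod1 (5.97), lay inside their control ranges on that array. These levels also lay below the medians of the negative controls, 7.34 to 7.45.

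**Figure D2:**
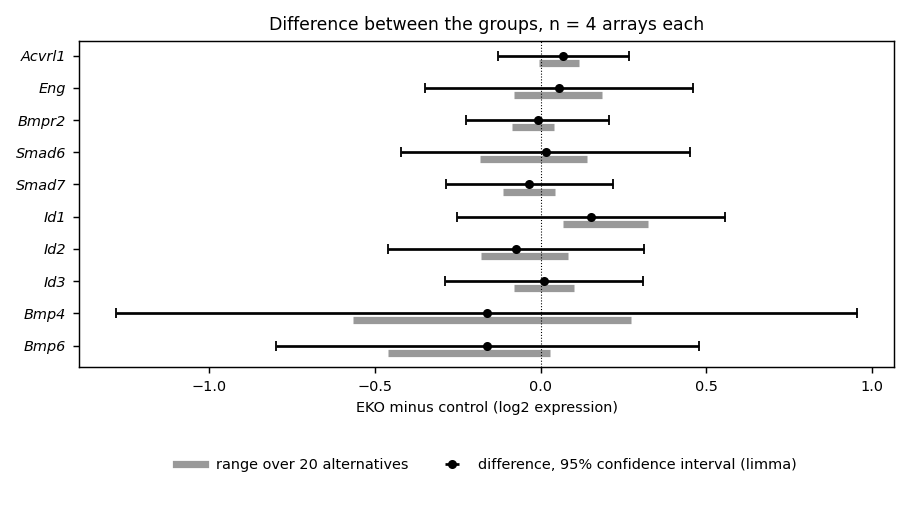
EKO minus control in log2 expression (horizontal axis) for each of the 10 genes, 4 arrays a group; points and bars give the limma difference with its 95% confidence interval, and grey bars the range over 20 alternative settings. Every interval includes 0, that of Bmp4 (-1.28 to 0.95) is the widest, and the grey bar lies on one side of 0 for Id1 alone.

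No pair of the genes passed the threshold for a relation over all 8 arrays. Of the 45 pairs, 40 had a Pearson r above 0 over the 8 arrays. In a two-sided exact permutation test 10 had an unadjusted p under 0.05, and 0 passed after Benjamini-Hochberg adjustment over the 45. The same shares over pairs of all genes tested were not computed, so these counts do not set the 10 genes apart from others. The closest pair was Smad6 with Bmp6, with r = 0.93 (exact permutation p = 0.00186, adjusted 0.0837) and Spearman rho = 0.93 (exact permutation p = 0.00223, adjusted 0.100). The r of Smad6 with Bmp6 was 0.92 within control and 0.99 within EKO arrays, and 0.89 without the 2 arrays farthest from the median of Smad6. Without control array 2, where Bmp6 was highest, this pair passed (r = 0.99, exact permutation adjusted p = 0.00893), and without each other array it did not.

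Next came Bmpr2 with Id3 (r = 0.86, exact permutation p = 0.00717, adjusted 0.161; rho = 0.74, exact permutation p = 0.0458, adjusted 0.206). That r was 0.78 within control and 0.96 within EKO arrays, and 0.66 without the 2 farthest arrays. Smad6 with Smad7 had r = 0.81 (exact permutation p = 0.0151, adjusted 0.178; rho = 0.90, exact permutation p = 0.00456, adjusted 0.103), and 0.87 without the 2 farthest arrays. Bmp4 with Bmp6 had r = 0.80 (exact permutation p = 0.0158, adjusted 0.178; rho = 0.81, exact permutation p = 0.0218, adjusted 0.206), which was 0.49 without the 2 farthest arrays and so rested on them in part.

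The receptor Acvrl1 and its readout gene Id1 had r = 0.54 (exact permutation p = 0.170, adjusted 0.425; rho = 0.57, exact permutation p = 0.151, adjusted 0.378), with 0.22 within control and 0.96 within EKO arrays and 0.75 without the 2 farthest arrays. The Id genes did not follow one another. Id1 with Id2 had r = -0.49 (exact permutation p = 0.220, adjusted 0.472; rho = -0.52, exact permutation p = 0.197, adjusted 0.466), and without the 2 farthest arrays it was -0.073. Id1 with Id3 had r = 0.14 and Id2 with Id3 had r = 0.12 (exact permutation adjusted p = 0.894 and 0.900; rho = 0.29 and 0.05, exact permutation adjusted p = 0.704 and 0.956), and both were 0.52 to 0.53 without the 2 farthest arrays.

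**Figure D3:**
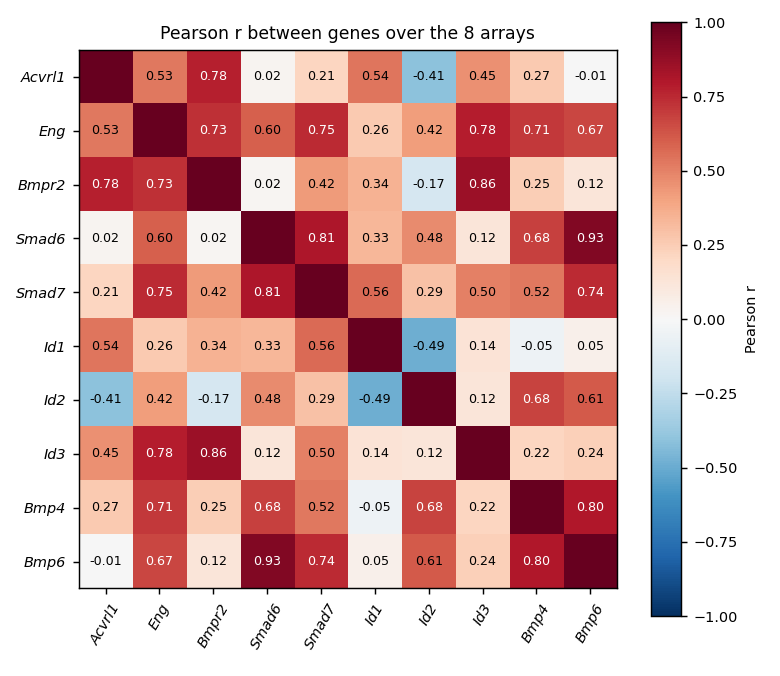
Pearson r (colour and number) between each pair of the 10 genes over the 8 arrays. The highest is Smad6 with Bmp6 (0.93), followed by Bmpr2 with Id3 (0.86), and the lowest is Id1 with Id2 (-0.49).

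The same was asked of the marker means of 5 cell types, as 50 relations, of which 2 had an unadjusted p under 0.05 and 0 passed after adjustment. Here, too, the shares over all genes tested were not computed. Id1 and the mean of the 10 endothelial markers had r = 0.82 (exact permutation p = 0.0160, adjusted 0.451; rho = 0.79, exact permutation p = 0.0279, adjusted 0.349). That r was 0.93 within control and 0.86 within EKO arrays, 0.82 without the 2 farthest arrays and at least 0.75 without any single array. EKO array 2, lowest for Id1, was also lowest for the endothelial mean, at 12.13. That mean spanned 0.28 over the 8 arrays, whereas its member Emcn spanned 2.66, the most of the 10 markers. On EKO array 2 Emcn (8.18), Pecam1 (18.07) and Tie1 (14.18) were lowest of the 8 arrays, and Cdh5 (16.52) was highest. The relation of Id1 with this mean without Emcn was not tested. Nor was it tested without Kdr and Robo4, whose group means lay below the negative-control medians. Smad6 and the smooth muscle mean had r = 0.77 (exact permutation p = 0.0181, adjusted 0.451; rho = 0.57, exact permutation p = 0.151, adjusted 0.669), 0.56 without the 2 farthest arrays. With the smooth muscle mean as a covariate, EKO minus control was -0.18 for Smad6 (limma unadjusted p = 0.216, adjusted p = 0.609), against 0.02 without it, and 0.17 for Id1 (limma adjusted p = 0.756). No fit had the endothelial mean as a covariate, and its part in the Id1 difference was not tested.

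**Figure D4:**
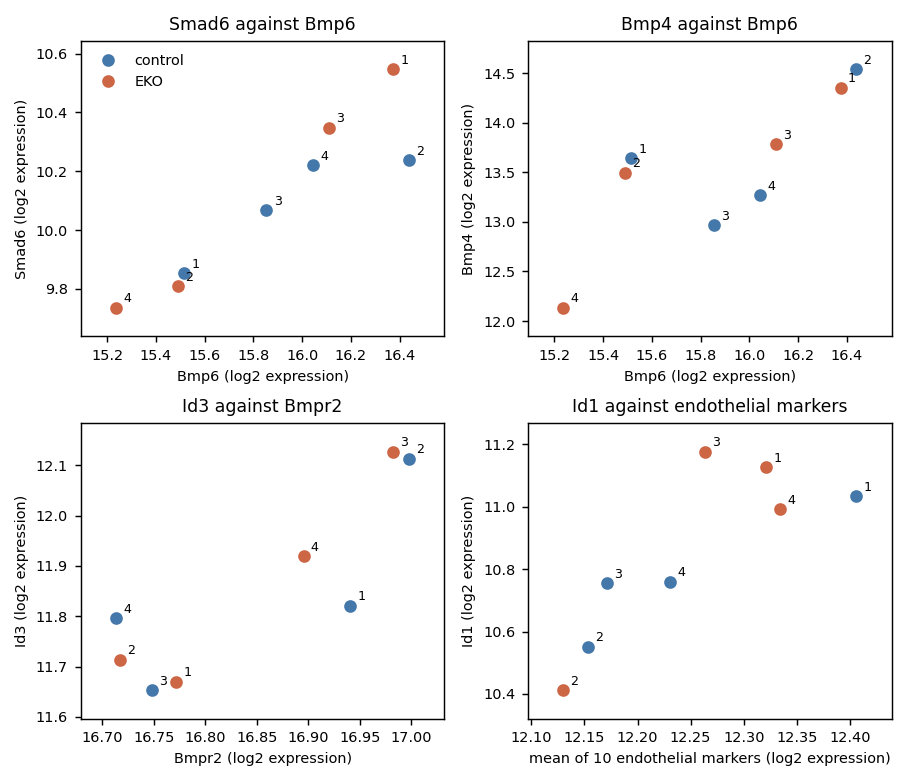
Log2 expression on each of the 8 arrays for Smad6 against Bmp6, Bmp4 against Bmp6, Id3 against Bmpr2, and Id1 against the mean of 10 endothelial markers; colours give the group and numbers the array within it. Control and EKO arrays mix along each cloud, and EKO array 4 lies at the low end of Bmp6 (15.24) and Bmp4 (12.13). The endothelial mean spans 0.28 over the arrays, and its most variable marker, Emcn, 2.66.

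For each gene, the protein-coding genes with the highest r among the other 11216 tested were read out as a description. With so many genes and 8 arrays, a high r is built into this choice. Bmp4 lay closest to Sertad2 (r = 0.98, rho = 0.95) and to Thbs1, the gene of the matricellular protein thrombospondin 1 (r = 0.97, rho = 0.98). Thbs1 had a still wider range, reading 13.53, 14.62, 12.62 and 13.00 in control and 15.36, 13.01, 13.62 and 10.79 in EKO arrays 1 to 4. Its highest value was on EKO array 1 and its lowest on EKO array 4.

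Bmp6 lay closest to Slc30a5, a zinc transporter gene (r = 0.98, rho = 0.93), and to Bgn, which encodes the proteoglycan biglycan (r = 0.97, rho = 1). The nearest genes were Tmem43 (r = 0.98) and Txnip (0.95) for Acvrl1, Ttl (0.97) and Fam118a (0.96) for Eng, and Perp (0.98) and Selenom (0.97) for Bmpr2. They were Trim16 (0.96) and Fblim1 (0.95) for Smad6, Cystm1 (0.97) and Ythdf3 (0.96) for Smad7, Dok4 (0.96) and Mknk2 (0.92) for Id1, Ppil1 (0.92) and Ccdc85b (0.91) for Id2, and Klhl24 (0.98) and Prrc2c (0.97) for Id3. None of these was one of the 10 genes.

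Beyond the 10 genes, a list of 71 genes of BMP signalling, the 10 among them, was read in the same fit. Of these, 69 had a probe set and 53 were tested. None passed the threshold in either direction, 3 had an unadjusted p under 0.05, beside 8.93% of all genes tested, and 2 had groups that did not overlap, beside 6.08% of all genes. Of the 11217 protein-coding genes in this limma fit, 657 had an unadjusted p under 0.05 and 503 had groups that did not overlap. The median difference of the 53 was -0.04, beside -0.02 over all genes tested and -0.05 over the protein-coding ones. The ligands named for this receptor complex, Gdf2, which encodes BMP9, and Bmp10, lay below the level filter of 6.14, at 5.51 and 4.55 in control and 5.57 and 4.75 in EKO arrays, and were not tested.

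Among the other tested ligand-side genes, Bmp1 had the lowest EKO minus control difference. Despite its name Bmp1 encodes a procollagen-processing protease. It read 8.44, 9.04, 9.10 and 9.11 in control and 8.72, 8.31, 8.41 and 8.68 in EKO arrays 1 to 4, a difference of -0.40 (SE 0.17, limma unadjusted p = 0.0455, adjusted p = 0.552). Control arrays 2 to 4 lay above all EKO arrays and control array 1 lay among them. The fibroblast marker mean was 8.39 ± 0.37 in control and 8.03 ± 0.24 in EKO arrays (7 of 8 markers lower), and its part in the Bmp1 value was not tested. The activin subunit gene Inhba differed by -0.05.

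Of the other receptors, the activin type II receptors Acvr2a and Acvr2b differed by -0.13 and 0.10, the BMP type I receptor Bmpr1a by -0.09 and the TGF-beta receptor Tgfbr2 by -0.08. The transducers Smad5 (-0.13), Smad4 (-0.11), Smad1 (-0.08) and Smad9 (-0.02) were each below 0, also with quantile normalization. Centring on the array median lowered every difference by the same amount, so it could not turn these signs. Smad9 stood at 0.053 with array weights, at 0.12 without control array 2 and at 0.015 without EKO array 2. Below 0 were also 8939 of all 16232 genes tested as deposited and 11740 of them after centring, and 7460 of the 11217 protein-coding genes as deposited. Of the inhibitors inside the cell, the ubiquitin ligase Smurf2 differed by -0.20 and the SMAD corepressor Skil by -0.15. Fkbp1a, whose protein holds type I receptors inactive, differed by 0.04, and the pseudoreceptor Bambi, a decoy at the membrane, by -0.31. None of these genes passed the limma threshold, the lowest adjusted p among the tested inhibitors being 0.567.

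Outside the cell, the BMP antagonist Sostdc1 was the list's lowest p. It read 6.58, 6.45, 6.50 and 6.61 in control and 6.68, 7.05, 6.77 and 6.81 in EKO arrays 1 to 4, so that all EKO arrays lay above all controls (difference 0.29, SE 0.09, limma unadjusted p = 0.0112, adjusted p = 0.511). These levels lay close to the filter of 6.14, and below the level of the array's negative controls, whose medians were 7.34 to 7.45. Its relative Sost differed by 0.33, the BMP co-receptor Rgma by -0.27 and the chordin-like Kcp by 0.10. Control and EKO means also lay below those medians for Sost (6.53 and 6.86), Kcp (6.31 and 6.41), Smad9 (6.91 and 6.90), Inhba (6.98 and 6.93) and Acvr2b (7.22 and 7.32). The 10 genes and Mef2c lay above those medians, but the 95th percentiles of the negative controls were 11.49 to 11.84. Every value of Smad6, Smad7, Id1, Id2 and Mef2c lay below these percentiles.

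Among targets, Atoh8, a helix-loop-helix factor induced through ALK1, read 6.49, 7.03, 6.72 and 6.82 in control and 7.12, 6.98, 7.13 and 6.91 in EKO arrays 1 to 4 (difference 0.27, SE 0.12, limma unadjusted p = 0.0464, adjusted p = 0.552). The homeobox gene Msx1 read 6.94, 7.09, 6.92 and 6.91 in control and 6.87, 6.77, 6.88 and 6.76 in EKO arrays, apart by a narrow gap (difference -0.15, limma adjusted p = 0.577). Hey1, a Notch and BMP target, differed by -0.35 and the hepcidin gene Hamp by 0.25. The group means of Atoh8, Msx1 and Hamp, too, lay below the medians of the negative controls, as did the EKO mean of Hey1 (7.21, against 7.56 in control). The E-protein genes Tcf12 (0.12), Tcf4 (0.14) and Tcf3 (0.0010), whose products the Id proteins bind, did not pass either, the lowest adjusted p being 0.661.

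**Figure D5:**
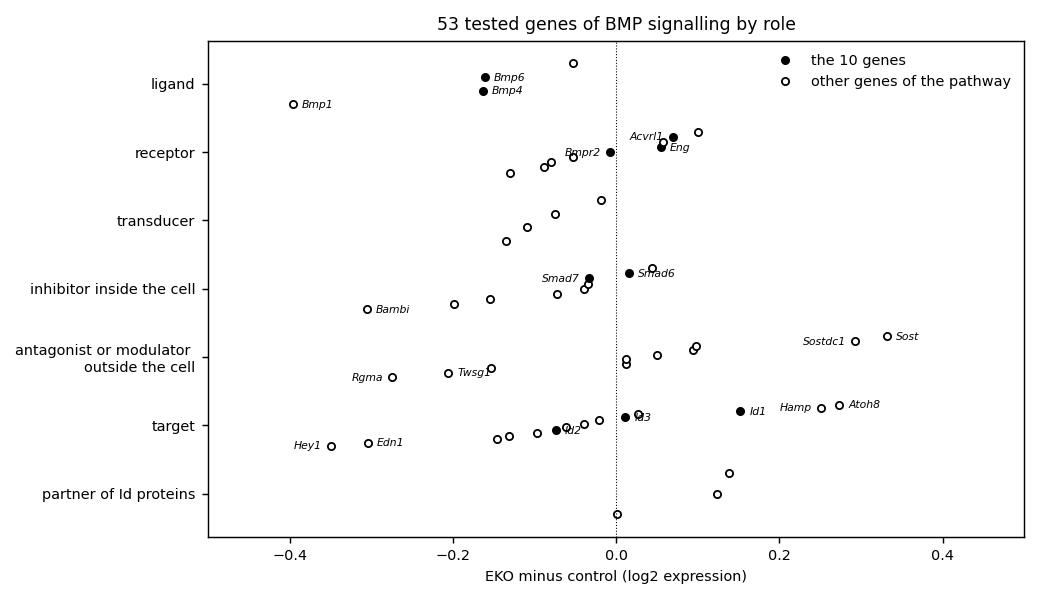
EKO minus control in log2 expression (horizontal axis) for the 53 tested genes of BMP signalling, grouped by role (vertical axis); filled points are the 10 genes and open points the others. The 10 genes lie between -0.16 and 0.15, and Bmp1 (-0.40), Hey1 (-0.35) and Sost (0.33) lie farthest from 0. Both group means of Sost and the EKO mean of Hey1 (7.21) lie below the negative-control medians of 7.34 to 7.45.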

How the data were processed

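The authors deposited log2 expression values per transcript cluster, made, per the labels, by the SST-RMA method of Expression Console. That method includes quantile normalization, but array medians over the genes tested still differed, from 8.43 to 8.53. The software version and a genome build are not given in the sources used here. Of 72688 probe sets, 6732 were array controls and 30604 had a single gene symbol in the platform annotation (repeats counted once), updated through the RefSeq table of GRCm38.p6. For 429 symbols with several probe sets, the one with the highest mean was used. Genes with a mean over all arrays over 6.14 (the median level of the table) entered the tests, 16232 in number and all 10 genes among them.

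The groups, by sample title, were compared in R 4.3.3 by the lmFit and eBayes steps of limma 3.58.1 (no covariates; Benjamini-Hochberg over all genes, threshold 0.05). Each array held a separate aorta, and 4 arrays a group limit the precision. Relations across arrays were tested exactly over all pairings. Both were also run on simulated data. The simulated group differences were larger than any found for the 10 genes, and the simulated relations were absent or close to perfect. Those runs do not cover small differences or moderate relations. The genes and lists were chosen with earlier results of these data known. Named are the 10 genes, Mef2c, up to 4 other pathway genes a role by p (any with groups apart), 2 like genes each and marker genes. The single markers of the cell types, S100a8 among them, were named after their values were seen, as were Gdf2 and Bmp10. Alternatives covered the filter, probe set choice, protein-coding genes alone, scaling, variance model, array weights, 2 marker covariates, the replicate number as a block, an exact permutation test over 70 assignments and leaving out each array. The smallest p that test allows is 0.0286.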

Additional observations from a re-analysis of the deposited data

Results flagged for a closer look

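Acvrl1 on EKO array 2 stood apart from the other EKO arrays. It read 12.52 there, against 12.67, 12.67 and 12.68, so that a share of 0.931 of the range of the group lay between it and its nearest neighbour. The value still lay inside the control range. It was the single such array among the 22 sets of 4 arrays examined (the 10 genes and Mef2c in each group), where about 1 in 20 is given by chance.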

How the results depend on the processing

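No alternative gave any of the 10 genes, or any gene of the BMP list, an adjusted p under 0.05 in limma. Id1 kept its sign under every setting able to change a difference. Centring used the array median over all probe sets other than array controls. It lowered the difference of every gene by the same amount, so that small differences above 0 turned sign. The median over all genes tested went from -0.02 to -0.09. It gave Acvrl1 -0.0057, Eng -0.020, Smad6 -0.060, Id3 -0.064, Fkbp1a -0.031 and Tcf3 -0.074 by centring. For values that turned sign under other settings the cause was not tested. Quantile normalization gave Smad7 0.0081 and Mef2c 0.016, and array weights gave Bmpr2 0.040, Inhba 0.060 and Smad9 0.053. With the adipocyte covariate Eng was -0.012 and Id3 -0.047, and with the smooth muscle covariate Bmpr2 was 0.030, Smad6 -0.18, Inhba 0.011 and Mef2c 0.025. Leaving out single arrays gave -0.079 to 0.18 for Eng, -0.055 to 0.041 for Bmpr2, -0.13 to 0.14 for Smad6, -0.11 to 0.044 for Smad7, -0.16 to 0.083 for Id2, -0.079 to 0.10 for Id3, -0.47 to 0.27 for Bmp4 and -0.35 to 0.028 for Bmp6. It gave -0.12 to 0.035 for Mef2c, -0.18 to 0.075 for Inhba, -0.13 to 0.12 for Smad9, -0.012 to 0.39 for Tcf4 and -0.034 to 0.030 for Tcf3. The r of Id1 with Id3 then ran from -0.21 to 0.52 and that of Id2 with Id3 from -0.092 to 0.42.

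At an unadjusted p under 0.05, the 1449 genes became 2714 without a filter on level, 808 with the filter at the 75th percentile and 742 with protein-coding genes alone, where different numbers of genes were tested. The count among the 10 genes, 0, became 1 with the smooth muscle covariate (Bmp6) and 0 to 1 with single arrays left out (Id1 without EKO array 2). The count in the BMP list, 3, became 5 without a filter, 1 at the 75th percentile, 6 with centring and 5 with the smooth muscle covariate, and 1 to 3 with single arrays left out (1 without control array 4 or EKO array 3). Over all genes the same count was 1724 with centring, 1743 with the smooth muscle covariate and 969 to 2002 with single arrays left out. The count of pairs of genes past the threshold, 0, was 0 to 1 with single arrays left out. Array pairs with the same replicate number had deviations correlated at -0.16, 0.21, -0.24 and 0.13. Over all pairs of a control and an EKO array the range was -0.40 to 0.46. These values cannot settle whether the numbers pair the samples. With the replicate block 1259 genes had an unadjusted limma p under 0.05, 0 of them among the 10. The block cannot change a difference, and Id1 stood at 0.15 as before.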
